A study of Rattus norvegicus with 2 samples.

Results

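The genes of the proteasome and of its regulators were followed in the NTS (nucleus tractus solitarius) of Wistar Kyoto rats (WKY), an inbred strain with normal blood pressure. They were found by name: every rat probe of the arrays whose gene name begins with Psm, followed by a letter from a to g and a digit. The pattern matched 50 gene names with 57 probes and 120 spots, and 49 of the 50 names had a measured probe, against 15563 measured genes in all. Psmc3ip, a cofactor of meiotic recombination that only shares the letters, was set aside, which left 48 measured proteasome genes of 49 names. The remaining name is Psma8, the alpha subunit of the testis, whose 3 probes were not well above background on either array. The counts include Psma3l and Psme1-ps1, which stand for a second probe of Psma3 and for a copy of Psme1.

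The study compared the sexes. The NTS was cut out between 1.0 mm in front of and 0.5 mm behind the calamus scriptorius, and total RNA came from 5 male and 5 female WKY rats, adults of 9 weeks. For each sex 100 ng from each rat was combined, and the 2 pools were measured on 1 single-colour Agilent array each. There is thus 1 array per sex, no test could be made, and every difference lacks a replicate check. Differences are female minus male on the log2 scale, after each array was set relative to its own 75th percentile, so at 0 a gene is equally bright on its array in both pools. Processed signals are given with the male pool first. The NTS is the brainstem relay for baroreceptor and other visceral afferents.

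The proteasome is the barrel-shaped protease that degrades proteins tagged with ubiquitin. Its 20S core carries the catalytic sites inside stacked rings of alpha and beta subunits, and its 19S regulatory particle has a base, whose ATPases unfold substrates, and a lid, which removes ubiquitin. Interferon replaces the constitutive catalytic subunits Psmb5, Psmb6 and Psmb7 with Psmb8, Psmb9 and Psmb10, which gives the immunoproteasome, an enzyme that favours peptides fitting MHC class I molecules. In brain the constitutive form is the usual form of neurons, while microglia are a known site of the immunoproteasome.

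The first 30 of the 60 bases of the probes of the 6 catalytic subunits are shown, since the constitutive and immunoproteasome values rest on 1 spot of each of them. They are written in lower case from the array files.

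Psmb5: cctctactatgtagacagtgaggggaacag
Psmb8: cttacctgcttggaactatgtctggttgtg
Psmb6: ctcaggctcggcagctgatacccaagcagt
Psmb9: acagctgatggtgtggaccatcgcgtcatc
Psmb7: tcatctctacagcatctatccgcatggatc
Psmb10: tggcctaagatgtagagtttggaacaaggg

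On the rn4 build, which the file headers name, the Psmb8 probe lies at chr20:4787980-4788039 and the Psmb9 probe at chr20:4806341-4806400, 18.4 kb away in the MHC region. The Psmb5 probe lies at chr15:32690134-32690193 and that of Psmb10 at chr19:35777711-35777770. The exon or UTR that each probe falls in was not analysed here. No pair of proteasome probes of different names shared a run of more than 12 bases. Probes were not compared with the transcripts of other subunits, so whether a probe also reads a subunit of like sequence was not tested.

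Levels of the proteasome genes differed little between the pools. The median difference of the 48 genes was -0.03, against -0.01 for all genes, with 17 genes higher in females and 31 higher in males. Scaling by the array median in place of the 75th percentile gave 24 and 24. Of all genes 54.3% were higher in males, and 43.8% under scaling by the median. Scaling on the spike-in controls raised the median of all genes by 0.67 toward the female pool. It put all 48 proteasome genes and 15388 of all 15563 genes on that side. The directions given here thus hold relative to the bulk of genes only. Of the 46 proteasome genes brighter than a level 4-fold below the 75th percentile, 36 lay within 0.1 of 0, or 78.3%, against 66.3% of the 7369 genes of that brightness. The SD of a difference over the spots of repeated probes was 0.07 at this brightness, and 6 of the 46 genes differed by more than 2 times that SD, against 20.9% of all genes as bright.

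At 1.5-fold or more 1 proteasome gene passed, Psmd11, and it was higher in the female pool, on a spot beside others that were also brighter on the female array, as described with the lid. Among all genes 2.47% passed 1.5-fold, with 0.900% higher in the female pool and 1.57% higher in the male pool, and among genes as bright as most proteasome genes 0.651% passed. The share of proteasome genes, 1 of 48 or 2.08%, is near that of all genes, and with 1 gene it cannot be set apart from that of genes as bright. At 2-fold no proteasome gene passed, against 0.533% of all genes. At a looser threshold of 0.32 on the log2 scale Psmd11 and Psmb11 passed, 2 of 48, against 9.41% of all genes.

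**Figure D1:**
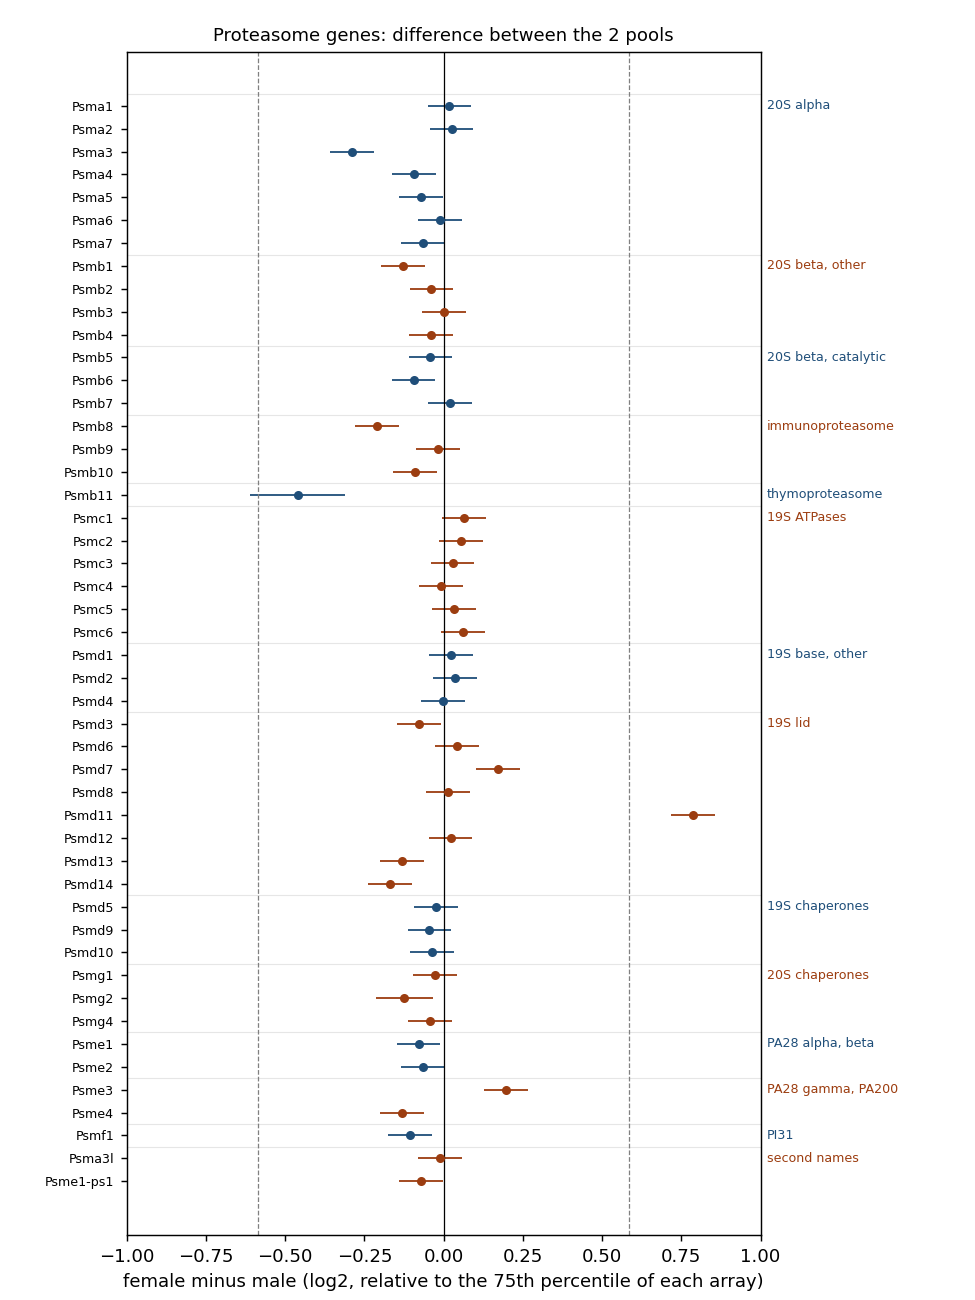
Difference of each of the 48 proteasome genes between the pools, female minus male on the log2 scale, ordered by role. Bars are the spot SD of repeated probes of like brightness, dashed lines mark 1.5-fold; all points but that of Psmd11 lie between the dashed lines.

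**Figure D2:**
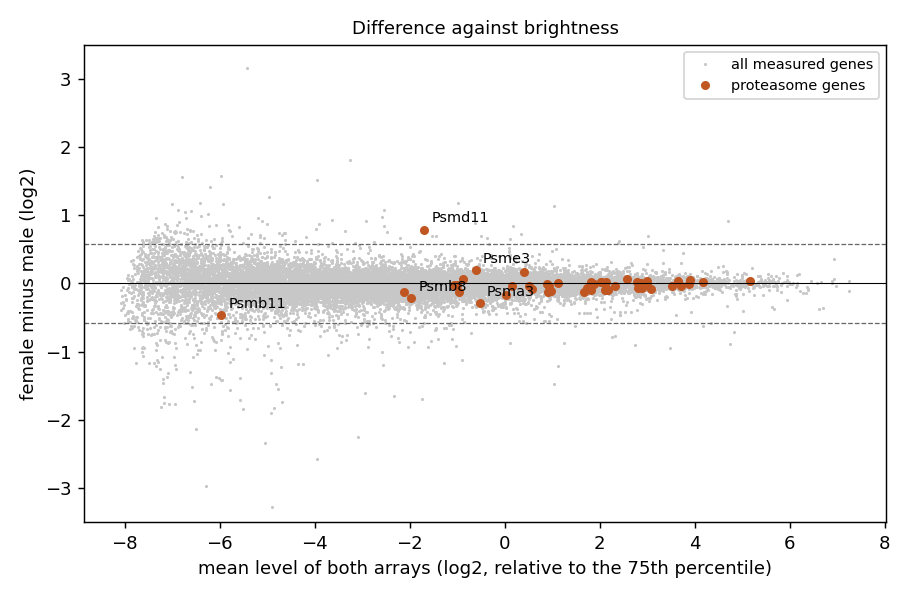
Difference between the pools (vertical, log2) against the mean level of both arrays (horizontal, log2 relative to the 75th percentile) for 15563 genes in grey and 48 proteasome genes in orange, with dashed lines at 1.5-fold. The grey cloud widens at low levels, where Psmb11 lies; Psmd11 at 0.79 lies outside the dashed lines.

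The constitutive 20S core was slightly lower in the female pool, with 10 of 14 genes on that side, or 71.4%, against 54.3% of all genes, and a median of -0.04. Under scaling by the median the core median was -0.01, with 9 of 14 genes lower against 43.8% of all genes, and under normexp background correction 8 of 14 were lower. In the alpha ring, whose gate controls entry of the substrate, 5 of 7 genes were lower in females, and the median was -0.06. The highest was Psma2, with signals of 12105 in males and 12097 in females, a difference of 0.02. The lowest was Psma3, at 2643 and 2123, a difference of -0.29. Psma3 was the only core gene beyond 2 times the spot SD, against 20.9% of all genes as bright. The second probe of this gene, Psma3l, gave -0.01. Among the beta subunits without a catalytic site, Psmb3 was equal in the pools at 25244 and 24800, since its small gap in signal is that of the arrays' 75th percentiles, 3441 and 3380. Psmb1 had the lowest value of that group, 11378 and 10231, a difference of -0.13.

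The constitutive catalytic subunits were nearly level between the pools. Psmb5, which carries the chymotrypsin-like site, read 40192 in males and 38359 in females, a difference of -0.04. Psmb6, with the caspase-like site, read 15435 and 14197, a difference of -0.09, which became 0.01 once the median of the neighbouring spots was removed. Psmb7, with the trypsin-like site, read 14903 and 14846, a difference of 0.02. The median of the 3 was -0.04, and Psmb6 alone exceeded the spot SD of 0.07, as did 49.3% of all genes of that brightness class.

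All 3 immunoproteasome subunits were on the lower side in the female pool, by small amounts, as were 54.3% of all genes. Psmb8, the counterpart of Psmb5, read 948 in males and 805 in females, a difference of -0.21 that is about 3 times the spot SD. Its level lies near the lower edge of this brightness class, and the spot SD of the next dimmer class was 0.09. Psmb10, the counterpart of Psmb7, read 12504 and 11529, a difference of -0.09. Psmb9, the counterpart of Psmb6, read 1646 and 1597, a difference of -0.02 that is within the spot SD and turned to 0.02 under scaling by the median. Each counterpart was read against its own constitutive partner by subtracting the 2 differences, which cancels any scaling of an array. This contrast was -0.17 for Psmb8 against Psmb5, -0.11 for Psmb10 against Psmb7 and 0.08 for Psmb9 against Psmb6. The spot SD of such a contrast is 0.10. The 2 negative contrasts exceed it and the positive one does not, and the median of the 3 is -0.11. The positive one depended on the processing. With the median of the neighbouring spots removed Psmb6 was at 0.01 and Psmb9 at -0.03, which turns its sign. Under normexp they were at -0.11 and -0.01. Exceeding 1 spot SD is common, since 49.3% of all genes in this brightness class did so, and 20.9% exceeded 2 times that SD. The share for such contrasts was not computed. The Psmb9 and Psmb10 spots lay in 4 of 20 bands of rows where an excess of dim spots was brighter in males by at least 2-fold, and without those bands Psmb8 is the only immunoproteasome subunit left, at -0.21.

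The brightness of different probes cannot rank their mRNAs, because probes differ in hybridisation. Each immunoproteasome probe was well above background on both arrays. Relative to the 75th percentile the Psmb8 level was -1.86 in males and -2.07 in females, that of Psmb9 -1.06 and -1.08, and that of Psmb10 1.86 and 1.77.

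Psmb11, the thymoproteasome subunit of cortical thymic epithelium, gave 2 dim probes. The brighter one read 145 in males and 129 in females, a difference of -0.15, which is the spot SD at that brightness. The dimmer one, in the same bands, read 28.7 and 16.5, a difference of -0.77. Their median was -0.46. The Psmb11 and Psmb5 probes lie 14.9 kb apart on chromosome 15.

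The genes that surround the immunoproteasome in antigen presentation showed small differences. Psme1 and Psme2 encode the interferon-responsive activator PA28 alpha and beta, a ring that opens the core without ubiquitin. Psme1 read 29871 in males and 27777 in females, a difference of -0.08. Psme2 had 10 spots, from 24712 to 27743 with a geometric mean of 26263 on the male array and from 23213 to 25689 with a geometric mean of 24653 on the female array. Its difference was -0.07 ± 0.04 (SD over 10 spots of 1 array pair), and all 10 spots were higher on the male array after scaling (8 of 10 under scaling by the median), although the ranges of signal overlap. The Psme1-ps1 probe on chromosome 17 gave -0.07, and whether it also reads Psme1 mRNA was not tested.

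Of the other genes of antigen processing, 8 of 9 were measured, and 5 were lower in females (4 under scaling by the median). Of all genes 54.3% were lower (43.8% under scaling by the median). The median of the 8 was -0.04. Their largest differences were those of Tap2, a subunit of the peptide transporter, at -0.11, of Irf1, an interferon-induced transcription factor, at -0.10, and of Erap1, a peptide-trimming protease, at -0.07. None reached 1.5-fold. The plot of catalytic subunits beside these genes shows the spread of single genes around 0.

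**Figure D3:**
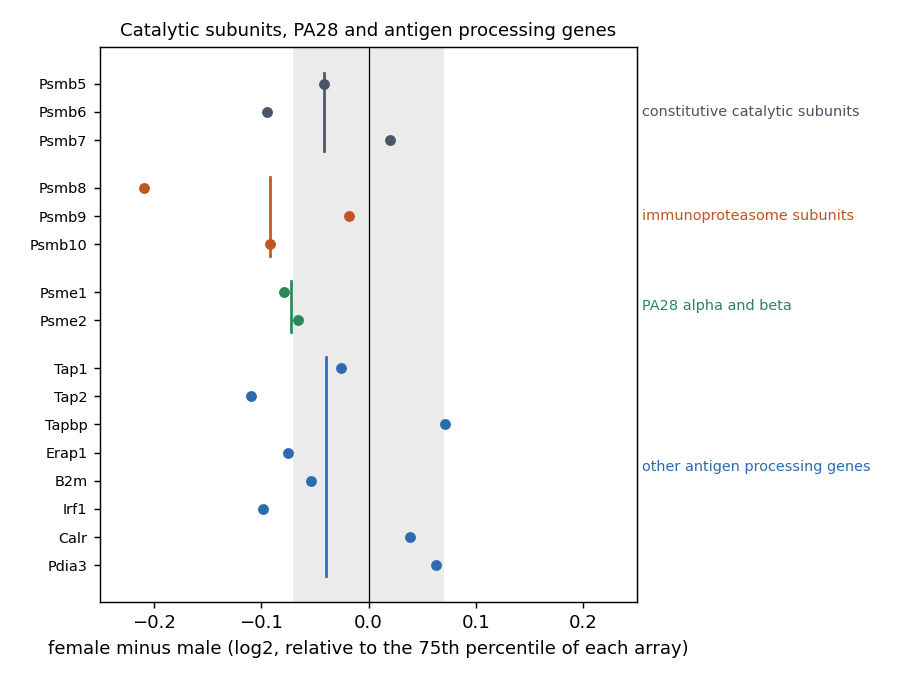
Difference between the pools (female minus male, log2) for the catalytic subunits, PA28 and 8 other genes of antigen processing; vertical bars are group medians and the grey band is the spot SD of 0.07 on either side of 0. Psmb8 at -0.21 lies farthest from 0, and Psmb9 lies inside the band.

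The 19S particle leaned the other way from the core. Of its 17 genes 12 were higher in females, or 70.6%, against 45.7% of all genes, and the median was 0.03. The core median minus the 19S median was -0.07. Array-wide factors cancel in this gap, and it ranged from -0.05 to -0.08 over the scalings and filters tried. Its error is not known, and no test of it was possible with 1 array per sex.

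The ATPases of the base, which unfold and thread the substrate, varied little: 5 of 6 were higher in the female pool and all lay within 0.1 of 0. Psmc1 was the highest, at 19998 in males and 20539 in females, a difference of 0.06. Psmc4 was the lowest, at 6398 and 6244, a difference of -0.01. The other base subunits varied as little, from 0.03 for the scaffold subunit Psmd2, at 42616 and 42887, to -0.001 for the ubiquitin receptor Psmd4, at 25395 and 24928. Differences of this size are below the error of 1 spot.

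The lid was the most uneven group of the 19S particle, with 5 of 8 genes higher in the female pool (4 under normexp) and only 4 within 0.1 of 0. Psmd14, the deubiquitinase of the lid, read 3737 in males and 3267 in females, a difference of -0.17 and the lowest of the lid. Psmd7, the partner with which Psmd14 forms the active pair, read 4285 and 4745, a difference of 0.17. These partner subunits thus lay on opposite sides of 0, each on 1 spot. Each differed by more than 2 times the spot SD, as did 20.9% of all genes as bright. With the median of the neighbouring spots removed, Psmd14 was at -0.19 and Psmd7 at 0.04, so the Psmd7 value moved with its place on the array. The repeated lid probes were close to 0: Psmd6 differed by 0.04 ± 0.02 and Psmd12 by 0.02 ± 0.03 (SD, each over 10 spots).

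Psmd11, a lid subunit that holds the regulatory particle to the core, read 813 in males and 1379 in females. The difference was 0.79, or 1.73-fold, on 1 probe with 1 spot at chr10:68710175-68710234 of rn4, outside those 4 bands. The first accession listed for the probe was not matched in the gene table of the GRCr8 assembly, while another one listed for it was, to Psmd11. The first 30 of its 60 bases are given because the value rests on this probe alone.

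Psmd11: taactagattagacgtcagtgttttaactg

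Around this spot, within 2 rows and 2 columns, 17 other spots that were well above background on both arrays had a median difference of 0.14 and ran from -0.35 to 1.17. Of these 17 neighbours 11 were brighter on the female array, and 5 differed by as much as Psmd11 or more, against 0.283% of all spots well above background. The spot lies 2 rows from the edge of the array. Subtracting the median of the neighbours left 0.64 for Psmd11, which is still above 1.5-fold, but values as high as that of Psmd11 were common around it. Without Psmd11 the 19S genes spanned -0.17 to 0.17, with 11 of 16 higher in females and a median of 0.03. No other lid subunit was at 1.5-fold.

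All 6 measured assembly chaperones were on the lower side in the female pool, as were 54.3% of all genes. Under scaling by the median this was so for 4 of 6, against 43.8% of all genes, with Psmd5 and Psmg1 at 0.01. The base chaperones Psmd5, Psmd9 and Psmd10 ran from -0.04 for Psmd9 to -0.02 for Psmd5. Psmd10, also known as gankyrin, is X-linked and gave -0.04, at 6647 and 6368. Of the core chaperones, which build the alpha ring, Psmg2 was lowest at 822 and 741, a difference of -0.12, and Psmg1 was highest at 27804 and 26785, a difference of -0.03. All of these except Psmg2 lay within the spot SD of their brightness, which 47.7% of all genes exceeded.

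Activators and the inhibitor outside the interferon group differed from each other. Psme3, the nuclear activator PA28 gamma, had 10 spots, from 1975 to 2441 with a geometric mean of 2107 on the male array and from 2207 to 2683 with a geometric mean of 2371 on the female array. All 10 spots were higher on the female array, and the difference was 0.20 ± 0.07 (SD over 10 spots), the widest difference among the 7 repeated proteasome probes. It lies beyond 2 times the spot SD, as did 20.9% of all genes as bright, and its ranges of signal overlap. The 10 spots share 1 labelled pool on each array, so they say nothing of variation between rats. Psmf1, the inhibitor PI31, was lower in the female pool on both probes, at -0.14 and -0.07.

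**Figure D4:**
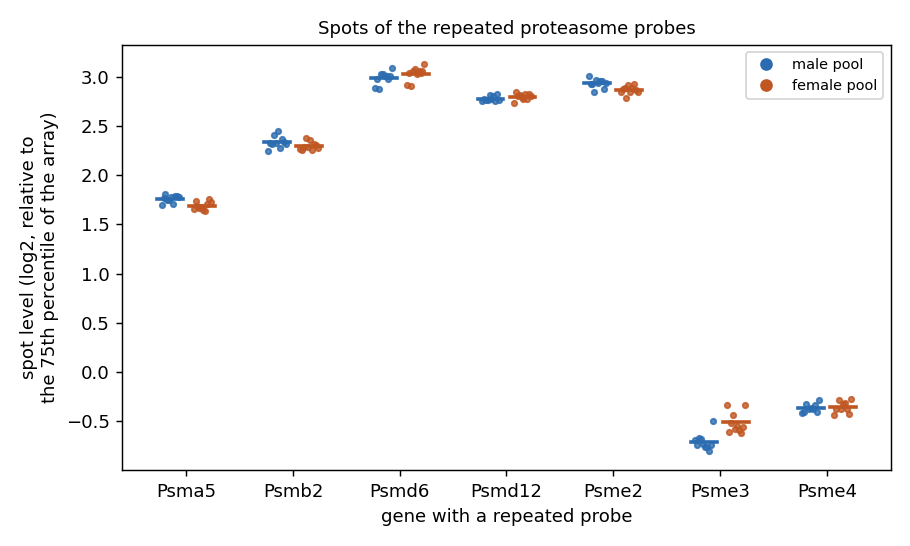
Spots of the 7 proteasome probes that were printed repeatedly (9 spots counted for Psme4, 10 for the others), as log2 level relative to the 75th percentile of the array, with means as bars, male pool in blue and female pool in orange. Psme3 shows the widest gap between the pools, 0.20, with all 10 spots higher on the female array; the other probes differ by 0.07 or less.

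The repeated probes give the scatter between spots of 1 probe on 1 array pair. Error between labelled pools, arrays or probes of a gene is not part of it. Psma5 of the alpha ring differed by -0.07 ± 0.03, with all 10 spots higher on the male array, and Psmb2 by -0.04 ± 0.03, with 9 of 10; under scaling by the median these counts were 8 and 6. Psmd6 was higher on the female array in 10 of 10 spots and Psmd12 in 7 of 10. The repeated Psme4 probe was split, with 5 of 9 spots higher on the female array, or 8 of 9 under scaling by the median. Spots of 1 probe thus lay close together, while the count of spots on each side changed with the scaling for several probes, among them Psmb2 and Psme4. The side that held most spots stayed the same for both.

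Probes of the same gene did not always give the same answer. The GRCr8 table lists Psma3l as a synonym of Psma3. The first accession of the Psma3l probe was not matched there, but another accession listed for that probe was, to Psma3. The 2 probes lie 1059 bases apart on chromosome 6. The Psma3 probe, at chr6:93112068-93112127, read 2643 and 2123, a difference of -0.29. The Psma3l probe, at chr6:93111009-93111068, read 12811 and 12486, a difference of -0.01. So the low value of Psma3 held for the dimmer probe and not for the probe beside it. The first 30 bases of each are shown since the value of this subunit depends on the probe.

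Psma3: ctggaaattatcttgatattggcacctgaa
Psma3l: gcatatggctagcaccatggattatatata

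Psme4, the nuclear activator PA200, gave a similar split. Its repeated probe differed by 0.01 ± 0.03 (SD over 9 spots), at 2672 and 2644. A single-spot probe 6606 bases away read 1284 and 1044, a difference of -0.27, and the median of both is -0.13. Probes of Psmd9 and of Psmg4 differed from each other by less than 0.1.

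Partner genes outside the Psm names were summarised by list, and of all measured genes 45.7% were higher in females. Of proteins bound to the proteasome, 9 of 11 were measured and 6 were higher in females, the median being 0.04. The largest differences were 0.20 for Adrm1, a ubiquitin receptor of the base, 0.14 for the deubiquitinase Usp14 and 0.11 for Zfand5, a ubiquitin-binding activator, whose 2 probes differed in sign at -0.02 and 0.25. Of the transcription factors of proteasome genes and the enzymes that process them, 2 of 4 were higher. Nfe2l1, which drives proteasome genes when activity falls short, was at 0.14, its deglycosylating enzyme Ngly1 at 0.13 and Nfe2l2 at -0.12. Of 13 ubiquitin genes, activating enzymes and shuttle factors, 7 were higher, with a median of 0.003. Rps27a, a ubiquitin fusion gene, was at -0.13, the segregase Vcp at -0.12 and the activating enzyme Uba1 and the shuttle factor Rad23b at 0.10 each. The 2 probes of Rps27a were apart, at -0.24 and -0.02. No partner gene reached 1.5-fold.

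Promoters are shown for 2 catalytic subunits as examples that hold 1 kind of match each, picked after the matches were seen; constitutive and immunoproteasome genes are known to answer to different factors. The 250 bases before the start of transcription come from RefSeq on GRCr8, where 42 of the 49 proteasome names had an entry. Capitals mark matches, on either strand, to TGACNNNGC (core of the antioxidant response element bound by NFE2L1) or to GAAANNGAA (core of interferon regulatory factor sites). The windows are chr15:32047380-32047629 and chr19:50743293-50743542, both on the minus strand.

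Psmb5: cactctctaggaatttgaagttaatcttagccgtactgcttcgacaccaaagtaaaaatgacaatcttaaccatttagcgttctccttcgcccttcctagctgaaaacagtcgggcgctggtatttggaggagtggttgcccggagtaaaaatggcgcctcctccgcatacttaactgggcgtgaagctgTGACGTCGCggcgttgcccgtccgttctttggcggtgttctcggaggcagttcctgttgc
Psmb10: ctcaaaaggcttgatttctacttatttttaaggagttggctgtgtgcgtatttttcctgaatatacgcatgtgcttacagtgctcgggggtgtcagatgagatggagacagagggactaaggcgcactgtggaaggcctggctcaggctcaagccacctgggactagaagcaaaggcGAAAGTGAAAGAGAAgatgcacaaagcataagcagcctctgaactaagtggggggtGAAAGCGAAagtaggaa

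Psmb5 held 1 match to the antioxidant response core, 60 bases before the start. Psmb10 held 3 matches to the interferon regulatory core, 2 of them overlapping, the first at 73 bases. The other catalytic subunits did not follow this pair throughout: Psmb6 held the antioxidant response core, while Psmb7, Psmb8 and Psmb9 held neither motif. The interferon regulatory core was also found in promoters of constitutive genes, those of Psma4, Psmb2, Psmb3, Psmd7 and Psmd11, and in that of Psme2. The antioxidant response core occurred in 16.7% of 42 proteasome promoters, against 10.2% of 27457 promoters. The interferon regulatory core occurred in 16.7% against 7.99%. A match describes letters only, and no binding was measured.

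Cell type markers were summarised by list, and of all measured genes 54.3% were lower in females. Of 10 microglia and macrophage markers 8 were lower in females, the median was -0.12, and their summed signal was 83183 in males and 78484 in females. The largest differences were -0.63 for Cd68, -0.28 for Csf1r and -0.22 for C1qc, while Cx3cr1 gave 0.13 and C1qb 0.01. Of 7 measured markers of blood leukocytes 6 were lower, with a median of -0.65 and a summed signal of 1464 and 906; Ltf, a neutrophil granule protein, gave -2.14, S100a8 -0.76 and Np4 -0.76. Most of these markers lay on the same side as the immunoproteasome subunits, and their part in the Psmb8 value was not tested. In bulk tissue fewer cells of a type and less RNA per cell cannot be told apart.

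Of 7 endothelial markers 6 were higher in females, with a median of 0.07 and summed signals of 10114 and 10584. The largest were Cldn5 at 0.21, Esam at 0.19 and Tek at 0.18. Of 7 measured neuronal markers 4 were lower (3 under scaling by the median), with a median of -0.01 and summed signals of 193345 and 189592. Snap25 gave 0.24, Nefl -0.16 and Nefm -0.09. No measured marker was at 0 signal; Cd3e and Rbfox3 were not among the measured genes.

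**Figure D5:**
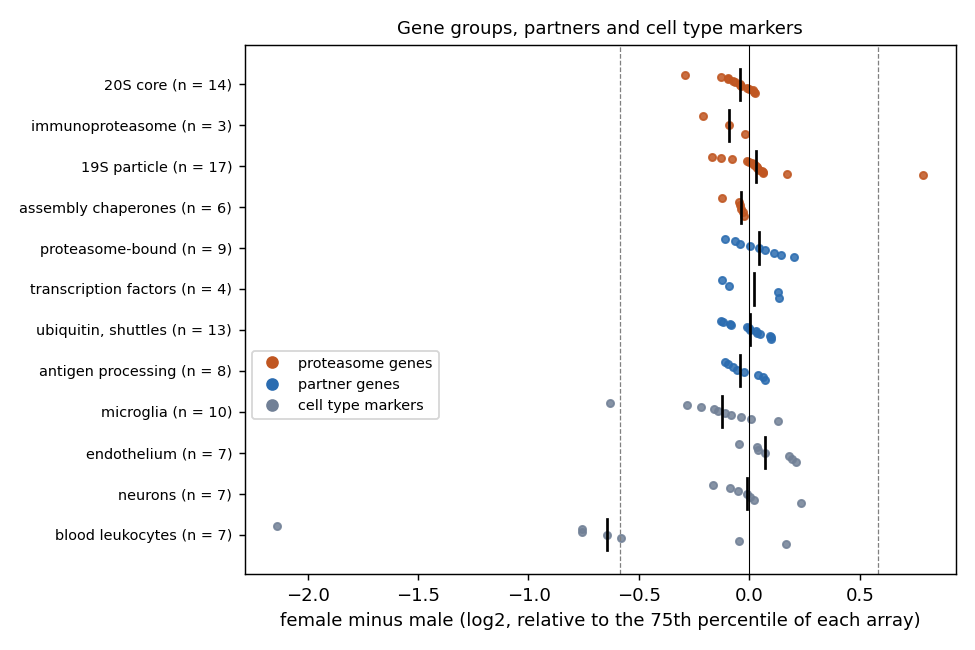
Differences between the pools (female minus male, log2) for groups of proteasome genes (orange), partner genes (blue) and cell type markers (grey), 1 point per gene, with group medians as black bars and 1.5-fold as dashed lines. Core and 19S medians lie at -0.04 and 0.03, and blood leukocyte markers lie lowest at -0.65.

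Of 8 genes of the nucleus and of the hindbrain level 7 were measured, and they ran from -0.19 to 0.62 with a median of -0.03. Tyrosine hydroxylase Th and dopamine beta-hydroxylase Dbh, enzymes of the catecholamine neurons of this nucleus, differed by 0.03 and -0.05, the transcription factor Tlx3 by -0.07 and the hindbrain gene Hoxb5 by -0.03. Prlh, which encodes prolactin-releasing peptide, read 14828 in males and 22425 in females, a difference of 0.62 and the only one of these genes at 1.5-fold. Lmx1b was at 0.23 and Cartpt at -0.19, so the list gives no uniform picture of how alike the dissections were. All 3 X-linked genes with reported escape from inactivation were higher in females, their median being 0.57. Each array held 42877 rat spots, of which 85.5% (male) and 87.9% (female) were well above background and 0 saturated.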

How the data were processed

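Both arrays are single-colour Agilent arrays of the same slide, hybridised with 150 ng of Cy3-labelled pooled RNA of integrity number above 7, per the labels' protocols. The deposited intensity values are processed signals, background-subtracted and detrended within each array, per the file headers. The headers name Agilent Feature Extraction 10.7.3.1 and build rn4; the submitters' processing notes give version 9.1. A deposited value table holds the same intensity times 1 factor per array (column medians 28.0 and 27.3, linear, not centred). Here log2 signals were set relative to each array's 75th percentile over rat spots (a 75th percentile of 3441 male, 3380 female). Control spots and 430 spots with an outlier flag were left out, spots of a probe were averaged, probes well above background on both arrays were kept, and a gene took the median of its probes. Other genes were named through the GRCr8 table, and members by the array files.

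The members, lists and alternatives were chosen with earlier results of these data known. Named genes were the catalytic subunits, activators and inhibitor, every member at 1.5-fold or more, the highest and lowest of each role, and the 3 largest differences of each partner or marker list; the nucleus and X-linked checks and other spelled-out members were added after values were seen. Motifs were chosen by known regulators after several were looked at. A few items of the lists are not reported here and enter no count of a list. The error is the root mean square spot SD of repeated probes of like brightness, and precision is limited by the number of arrays. Steps were tested on simulated data. Python 3.11.15, R 4.3.3 and limma 3.58.1 (normexp) were used.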

Additional observations from a re-analysis of the deposited data

How the results depend on the processing

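Results were recomputed under scaling by the median, quantile normalization, spike-in scaling, removal of a loess trend of span 0.3, normexp (offset 50), the deposited table, 3 changes of the background filter, retention of outlier spots, use of only the brightest probe per gene, omission of 4 of 20 bands of rows, and, chosen after seeing the data, removal of the median of neighbouring spots. Spike-in scaling moved all values toward the female pool. The medians became 0.64 for all proteasome genes, 0.63 for the constitutive core, 0.58 for the immunoproteasome and 0.70 for the 19S genes. Of the 48 proteasome genes 36 passed 1.5-fold, while the median of all genes was itself 0.66. The share of all genes passing was not counted under it. That setting shifts every gene by 0.67, so contrasts between subunits were the same under it. Without a background filter 2 of 49 proteasome genes passed 1.5-fold, the second being Psma8 from probes not well above background. The share of all genes passing was not counted there. A threshold of 2-fold left 0 and one of 0.32 on the log2 scale 2. Without the 4 bands the immunoproteasome median was -0.21, from Psmb8 alone. Over the 12 settings other than spike-ins and thresholds, Psmd11 ran from 0.64 to 0.84 and Psme3 from 0.19 to 0.23. The median of all proteasome genes ran from -0.04 to 0.003, so its sign depends on the scaling, and the immunoproteasome minus constitutive median from -0.17 to -0.10. The core median ran from -0.04 to -0.01, Psmd7 from 0.04 to 0.23 and Psmb6 from -0.11 to 0.01. Psme4 ran from -0.15 to 0.01 and Psmb11 from -0.48 to -0.14. No paired analysis was possible because each sex has 1 array. Leaving out a replicate was not possible for the same reason.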
